A study of Equus asinus with 2 samples.

Results

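The small leucine-rich proteoglycans are secreted matrix proteins with a core of leucine-rich repeats that bind collagen fibrils and set their spacing, and several of them also hold growth factors such as transforming growth factor beta in the matrix. The decorin group (DCN, BGN, ASPN) carries, except for asporin, chondroitin or dermatan sulfate chains. The lumican group (LUM, FMOD, PRELP, OMD) is mostly linked to keratan sulfate, and osteoglycin (OGN) belongs to neither group. In developing gonads and kidneys such proteins are known as products of connective tissue cells. These 8 genes were followed among 38517 features: 7 rows were found by their symbol, and PRELP was found as LOC106824089, which the RefSeq gene table of the donkey names PRELP.

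The values come from 2 single-cell RNA libraries of fetal donkey (Equus asinus), 1 per stage. One library was made from mesonephros and gonad at 4 weeks of gestation, the mesonephros being the transient kidney beside the forming gonad. The other was made from tissue labelled as ovary at 8 weeks. The labels give no sex, strain or treatment and do not say how many fetuses went into a library, so stage, dissection, animal and library cannot be told apart and no test between the stages was made. Both labels give germ cells as the cell type, yet germ cell-gated cells made up 5.24% and 5.54% of the cells. In the library labelled ovary, AMH and SOX9, which mark Sertoli cells, stood at 514 and 41.4 UMIs per 1000000 (CPM) and FOXL2, which marks granulosa cells, at 1.55 CPM.

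A UMI (unique molecular identifier) counts 1 captured RNA molecule. After a filter of at least 200 genes, 8912 and 14590 cells were kept at 4 and 8 weeks, with medians of 7728 and 5877 UMIs over all barcodes, and 38 barcode sequences occurred in both libraries. Cells were put into classes by marker genes that include none of the 8 proteoglycans, and the UMIs of all cells of a class were summed. A level is such a sum in CPM, always of 1 library, with a 95% exact Poisson interval. These intervals cover counting error only, and hold no spread between animals. Levels were read within a gene from class to class. Different genes were not ranked, since transcript length and capture of their ends were not known. Macrophage-gated cells, 129 at 4 weeks and 714 at 8 weeks, should lack the family, and their level serves as the background of RNA free in the suspension.

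DCN, LUM and OGN were high in stroma and low in macrophages in both libraries, and as high or higher in cells of the smooth muscle or myoid gate. BGN, ASPN, FMOD and PRELP reached their highest class levels outside stroma. Stroma-gated cells numbered 1744 at 4 weeks and 7989 at 8 weeks. They carried PDGFRA at 259 and 292 CPM and COL1A1 at 1272 and 1472 CPM, against 2.39 and 23.9 CPM and 32.3 and 92.7 CPM in macrophage-gated cells. Both genes are markers of the stroma gate, so these values describe the gate and are no separate evidence of cell type. The summed level of the 8 genes in stroma was 1452 CPM at 4 weeks and 2487 CPM at 8 weeks, a ratio of 1.71 (95% interval 1.69 to 1.73). DCN supplied 1077 and 1992 CPM of these sums, so the sum mainly follows DCN. The other 7 genes together were 376 CPM (367 to 384) and 495 CPM (490 to 500), a ratio of 1.32 (1.29 to 1.35).

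**Figure D1:**
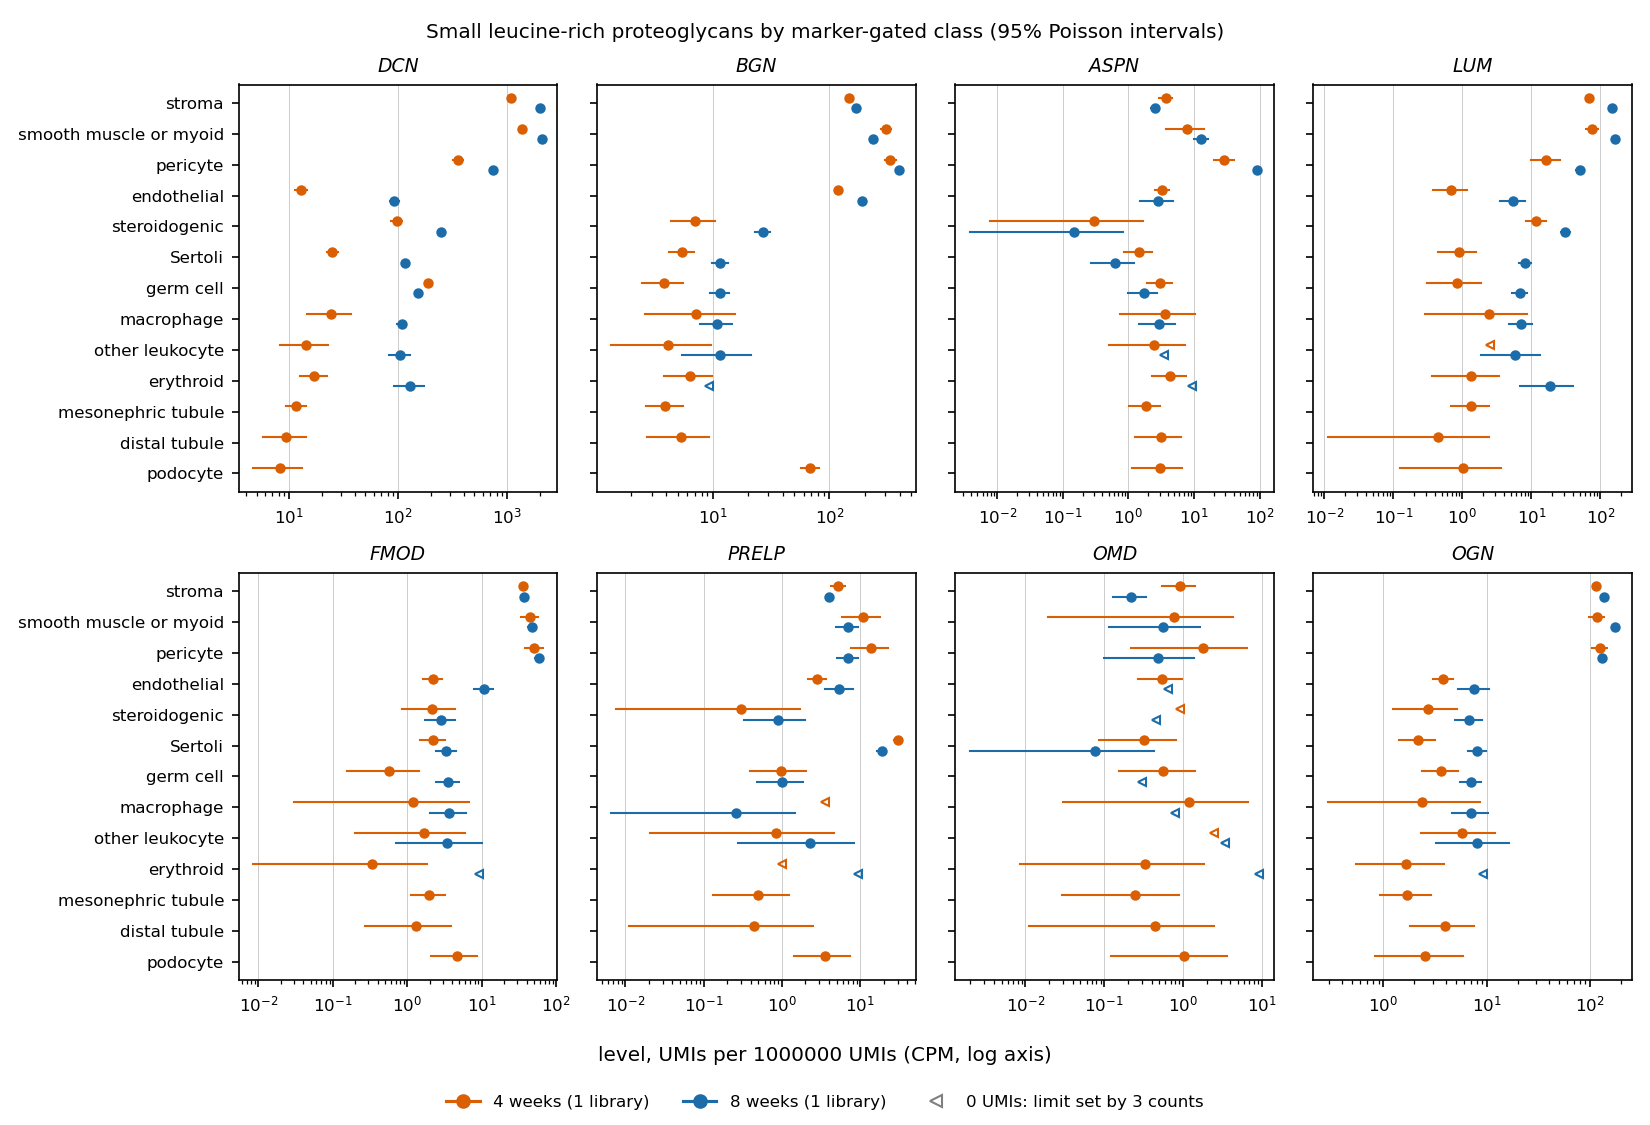
Level of each of the 8 genes (UMIs per 1000000 UMIs, log axis) in the marker-gated classes at 4 weeks and 8 weeks, 1 library each, with 95% Poisson intervals; open triangles give the limit that 3 counts set where no UMI was found. DCN, LUM and OGN are high in stroma, in cells of the smooth muscle or myoid gate and, at lower DCN and LUM levels, in pericytes, while PRELP is highest in Sertoli cells.

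Decorin, the best known member, binds collagen I and transforming growth factor beta. DCN in stroma was 1077 CPM (1062 to 1091) at 4 weeks and 1992 CPM (1982 to 2001) at 8 weeks, 1.85-fold higher (1.82 to 1.88). Macrophage-gated cells had 23.9 and 108 CPM, so stroma stood 45.0-fold (29.1 to 73.7) and 18.5-fold (16.8 to 20.4) above background. The 4-week background rests on 20 UMIs. At 4 weeks DCN was lower in endothelial cells (12.7 CPM), mesonephric tubule cells (11.6 CPM) and podocytes (8.13 CPM), though not in Sertoli cells (24.9 CPM). The 4-week fold thus depends on the class taken as background. A DCN UMI was found in 92.1% of stroma-gated cells at 4 weeks and 93.4% at 8 weeks. With each cell thinned to 1000 UMIs, which left out 19 and 450 shallower cells, the shares were 62.5% (60.2 to 64.8) and 80.4% (79.5 to 81.3), against 3.42% and 9.50% of thinned macrophage-gated cells. COL1A2 moved less, with 1688 and 1850 CPM. Stroma thus held 0.638 DCN UMIs per COL1A2 UMI (0.627 to 0.649) at 4 weeks and 1.08 (1.07 to 1.08) at 8 weeks. COL1A2 is itself a marker of the stroma gate, so its level and this ratio are partly shaped by the gate at both stages.

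Lumican, which regulates fibril diameter, was the only member at least 2-fold higher at 8 weeks in stroma. LUM was 67.4 CPM (63.8 to 71.1) at 4 weeks and 147 CPM (144 to 149) at 8 weeks, a ratio of 2.18 (2.06 to 2.31), and macrophage-gated cells had 2.39 and 7.09 CPM. The step past 2-fold did not hold with every weighting: the log2 ratio was 1.12 from pooled UMIs, 0.89 as a mean over cells and 0.84 after thinning. Among the 22365 genes with at least 10 UMIs in stroma, 5.91% were at least 2-fold higher at 8 weeks and 14.1% at least 2-fold lower. One of the 8 members was at least 2-fold higher and 1, OMD, at least 2-fold lower. Their median log2 ratio was 0.11, against -0.12 over all genes tested.

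OGN, BGN and FMOD were close at the stages. Osteoglycin, also called mimecan, had an OGN level of 115 CPM (110 to 120) and 136 CPM (134 to 139) in stroma. Its log2 ratio of 0.24 turned to -0.03 when cells were weighted equally. Biglycan, a signal for Toll-like receptors when set free from the matrix, had a BGN level of 147 CPM (142 to 152) and 168 CPM (165 to 171). Fibromodulin, a partner of lumican on the collagen fibril, had an FMOD level of 36.3 and 37.1 CPM, and its ratio of 1.02 had an interval from 0.941 to 1.11. Its direction was not settled: the log2 ratio of 0.03 was between -0.10 and 0.06 under the alternatives.

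The remaining 3 members were scarce in stroma. Asporin, which competes with decorin for collagen, had an ASPN level of 3.70 and 2.52 CPM, within the counting interval of the macrophage level (3.59 and 2.89 CPM). PRELP, which links basement membranes to connective tissue, had 5.22 and 4.05 CPM in stroma. The log2 ratios of ASPN (-0.56) and PRELP (-0.37) turned to 0.37 and 0.84 after thinning. Osteomodulin, known from mineralising tissue, had 18 OMD UMIs in stroma at each stage, 0.913 and 0.217 CPM, and its macrophage background rested on 1 UMI and 0 UMIs.

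Within stroma, subsets were gated on MSC, on POSTN (periostin), on NRG1 and SORCS3, on RXFP2 and PENK, on PI15, PRSS35 and ELN, and on cell cycle genes. A cell that passed the cell cycle gate was counted as proliferating stroma only. Stroma cells of no subset (630 at 4 weeks and 2040 at 8 weeks) or of several (193 and 1823) were left out of the 6 subsets. DCN was higher at 8 than at 4 weeks in each of the 6 subsets, from 1.44-fold (1.30 to 1.59) in MSC stroma to 2.07-fold (2.01 to 2.13) in proliferating stroma. LUM was higher at 8 weeks in each of the 6 as well, with ratios from 1.82 to 3.12. The MSC subset held 36 cells and the PI15 and PRSS35 subset 24 cells at 4 weeks, and the latter 143 at 8 weeks.

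**Figure D2:**
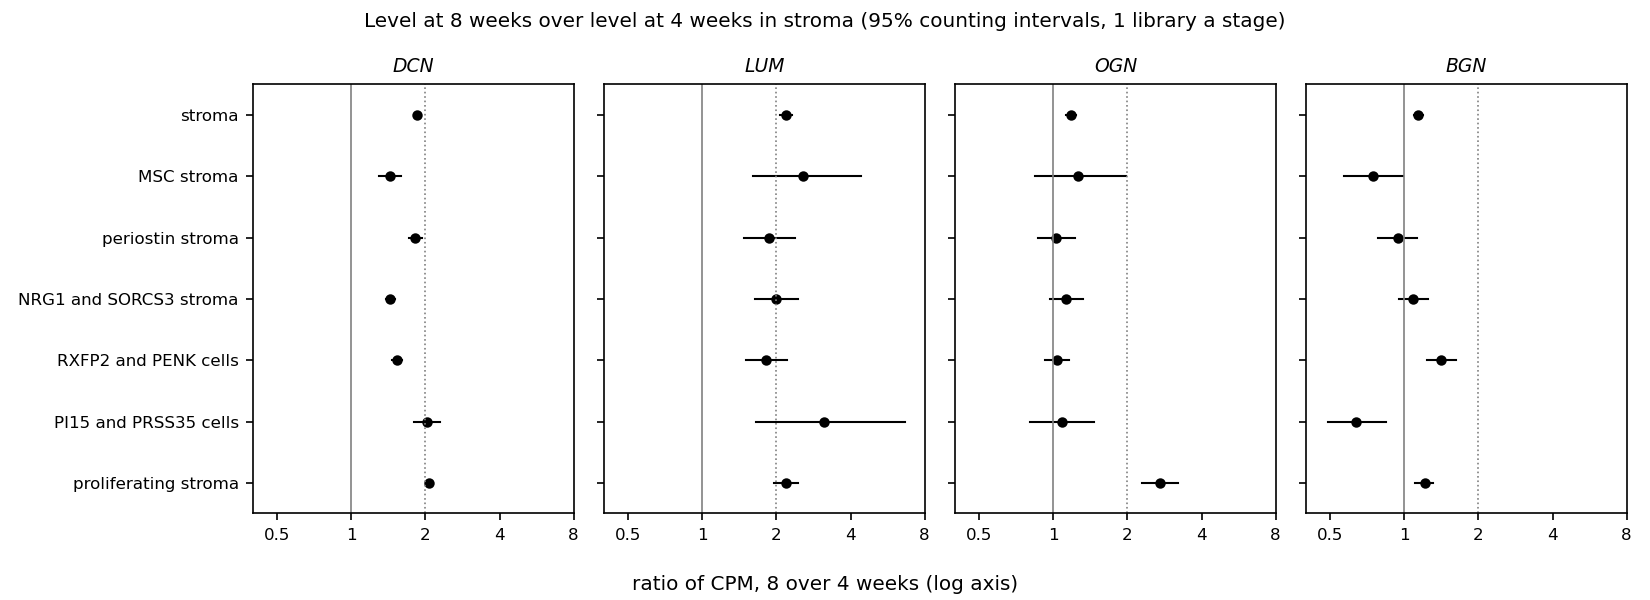
Ratio of the level at 8 weeks over that at 4 weeks (log axis) for DCN, LUM, OGN and BGN in all stroma and in 6 stroma subsets, with 95% counting intervals; the solid line marks 1 and the dotted line 2. All intervals of DCN and LUM lie above 1, while those of OGN include 1 in 5 subsets and BGN points lie on both sides of 1.

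LUM and OGN differed in which subset held most of them. LUM in cells with RXFP2 or PENK, genes of the insulin-like 3 receptor and of an opioid peptide precursor, was 48.8 CPM (41.3 to 57.3) at 4 weeks and 88.9 CPM (80.8 to 97.5) at 8 weeks. In MSC stroma, gated on the musculin transcription factor gene, LUM was 71.9 CPM (41.9 to 115) and 185 CPM (176 to 194). The RXFP2 and PENK cells thus had 0.679 (0.410 to 1.20) and 0.481 (0.432 to 0.535) times the LUM level of MSC stroma, with an interval that includes 1 at 4 weeks. OGN ran the other way: it was 164 and 170 CPM in RXFP2 and PENK cells and 101 and 128 CPM in MSC stroma, ratios of 1.62 (1.07 to 2.55) and 1.33 (1.22 to 1.46). The cells gated on PI15 and PRSS35 had the highest OGN levels of the 6 subsets, 231 CPM (174 to 302) and 250 CPM (220 to 281). Stroma cells of several subsets, which are outside the 6, had 237 CPM (217 to 258) and 184 CPM (179 to 190).

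In periostin stroma at 4 weeks the pooled FMOD and PRELP levels were above those of stroma as a whole (36.3 and 5.22 CPM). FMOD was 71.5 CPM (56.9 to 88.6) there at 4 weeks and 44.2 CPM (35.3 to 54.6) at 8 weeks, against 16.9 CPM (4.61 to 43.3) and 33.7 CPM (30 to 37.8) in MSC stroma. After thinning, however, an FMOD UMI was found in 2.73% (0.566 to 7.76) of periostin stroma cells at 4 weeks, against 3.48% (2.66 to 4.45) of all stroma and 5.56% (0.680 to 18.7) of MSC stroma, and these shares were not separated. PRELP in periostin stroma rested on 18 and 16 UMIs, 15.5 CPM (9.19 to 24.5) and 8.32 CPM. At 4 weeks the PI15 and PRSS35 cells had a PRELP level of 12.8 CPM (2.65 to 37.5), from 3 UMIs, which counting error does not separate from it. BGN in the PI15 and PRSS35 cells was 321 CPM (253 to 403) at 4 weeks and 205 CPM (179 to 234) at 8 weeks, a ratio of 0.639 (0.490 to 0.843). In MSC stroma BGN was 232 CPM (175 to 303) and 173 CPM (164 to 182), a ratio of 0.743 (0.568 to 0.992). From pooled UMIs BGN was thus lower at 8 weeks in these 2 subsets, while it was higher in stroma as a whole. The 4-week levels rest on 75 UMIs in 24 PI15 and PRSS35 cells and 55 UMIs in 36 MSC cells. Thinned BGN shares had intervals that overlapped between the stages. The PI15 and PRSS35 cells had 33.3% (15.6 to 55.3) and 14.4% (9.02 to 21.3), and MSC stroma 16.7% (6.37 to 32.8) and 15.6% (13.3 to 18.3). In all stroma the BGN log2 ratio of 0.19 was 0.04 as a mean over cells and 0.19 after thinning.

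**Figure D3:**
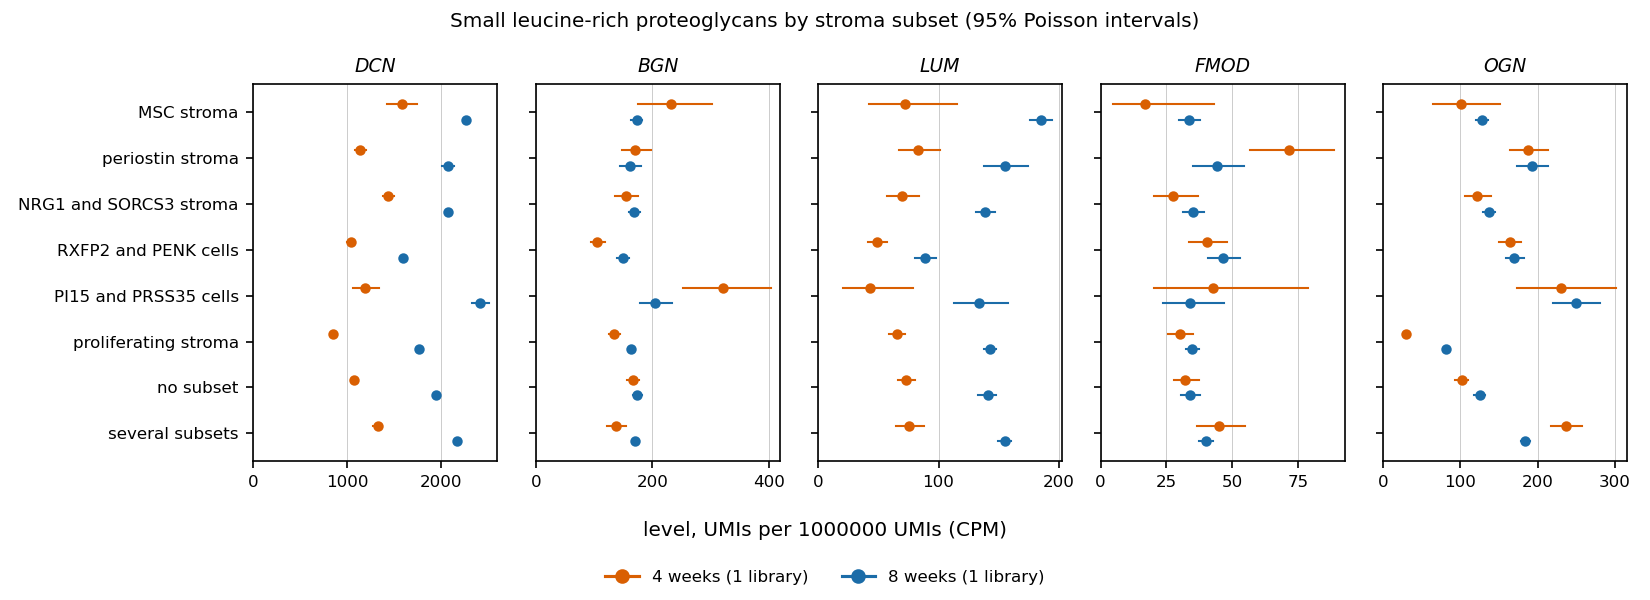
Levels (UMIs per 1000000 UMIs) of DCN, BGN, LUM, FMOD and OGN in the 6 stroma subsets and in stroma cells of no subset or of several, with 95% Poisson intervals, 1 library per stage. OGN is lowest in proliferating stroma at both stages, and all DCN and LUM points are higher at 8 weeks than at 4 weeks.

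Proliferating stroma, gated on genes such as MKI67 and TOP2A, was low in OGN. It held 29.9 OGN CPM (25.5 to 34.9) at 4 weeks and 80.9 CPM (77.4 to 84.6) at 8 weeks, and the other stroma cells held 147 CPM (141 to 154) and 159 CPM (156 to 162). OGN was thus 4.93-fold (4.20 to 5.82) lower in proliferating cells at 4 weeks and 1.96-fold (1.87 to 2.06) lower at 8 weeks. A thinned cell had an OGN UMI in 1.16% (0.317 to 2.94) and 4.03% (3.04 to 5.24) of proliferating cells, against 14.3% and 13.7% of the others. Unthinned medians were 11604 and 11308 UMIs in proliferating cells and 7571 and 4995 in the others. Deep cells weighed on the 8-week value: the log2 ratio of -0.97 was -1.61 without the 6% of cells with the most UMIs, -1.68 as a mean over cells and -1.93 after thinning.

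The other members differed less between proliferating and other stroma. DCN was 1.36-fold (1.32 to 1.41) and 1.18-fold (1.17 to 1.20) lower, and the LUM ratios of 0.958 (0.846 to 1.08) and 0.965 (0.928 to 1.00) had intervals that reach 1. At 4 weeks 2 of the 8 members, OGN and PRELP, were at least 2-fold lower and 2, ASPN and OMD, at least 2-fold higher, where 4.90% and 5.17% of the 18368 genes compared were. ASPN was 7.57 CPM in proliferating and 2.24 CPM in other stroma, and OMD rested on 8 and 10 UMIs. At 8 weeks 0 members passed either limit, against 3.51% and 3.74% of 21459 genes.

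Pericytes, the contractile cells on small vessels, had the highest ASPN levels of all classes and, at 8 weeks, the highest BGN level. The pericyte gate requires an RGS5 UMI and took 119 and 541 cells, of which 417 of 660 lay in 1 cluster. Cells that also passed the stroma gate or the smooth muscle or myoid gate were counted as pericytes. BGN there was 333 CPM (300 to 369) at 4 weeks and 395 CPM (380 to 411) at 8 weeks, 2.27-fold (2.03 to 2.53) and 2.35-fold (2.25 to 2.46) above stroma. ASPN was 29.1 CPM (19.9 to 41.1) and 91.0 CPM (83.7 to 98.8), with a ratio of 3.13 (2.19 to 4.62) between the stages. The size of this ratio depended on the weighting of cells: the ASPN levels were 41.5 and 74.9 CPM as a mean over cells and 59.8 and 81.9 CPM after thinning. On the log2 scale the stage ratio was 1.64 from pooled UMIs, 0.85 as a mean over cells and 0.45 after thinning. ASPN in pericytes was above stroma at both stages, by 2.98 and 5.18 on the log2 scale. Since stroma is at the macrophage background of ASPN, these sizes are not precise, and after thinning they were 4.10 and 4.18.

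The same cells held less DCN and LUM than stroma and as much OGN. DCN in pericytes was 354 CPM (320 to 391) and 735 CPM (714 to 756), which is 3.04-fold and 2.71-fold below stroma. LUM was 16.4 and 49.9 CPM, 4.12-fold (2.59 to 6.97) and 2.94-fold (2.63 to 3.30) below stroma. OGN was 124 and 132 CPM, with ratios to stroma of 1.07 (0.897 to 1.28) and 0.971 (0.904 to 1.04). FMOD was 51.0 CPM (38.5 to 66.2) and 58.5 CPM (52.7 to 64.8), 1.40-fold (1.05 to 1.84) and 1.58-fold (1.41 to 1.76) above stroma.

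Cells of the smooth muscle or myoid gate, 177 and 521, had BGN, PRELP and DCN levels above those of stroma at both stages. Only 61 of these 698 cells lay in the cluster that held most pericytes, and 224 and 176 lay in clusters 8 and 5, which stroma-gated cells also fill. Cells that passed both this gate and the stroma gate were counted here and not in stroma. DCN was 1384 and 2089 CPM, 1.29-fold (1.22 to 1.35) and 1.05-fold (1.03 to 1.07) the stroma level. BGN was 304 CPM (275 to 336) at 4 weeks and 234 CPM (222 to 248) at 8 weeks, 2.07-fold (1.86 to 2.30) and 1.40-fold (1.32 to 1.48) above stroma. The pericyte level was 1.09 (0.947 to 1.27) times this at 4 weeks, which counting error does not separate from 1, and 1.69 (1.57 to 1.81) times at 8 weeks. PRELP, at 10.8 and 6.88 CPM, was 2.06-fold (1.09 to 3.62) and 1.70-fold (1.18 to 2.39) above stroma. ASPN was 7.70 and 12.8 CPM, with ratios to stroma of 2.08 (0.958 to 4.05) and 5.09 (3.82 to 6.72). For OGN, LUM and FMOD the ratios to stroma at 4 weeks had intervals that include 1, and at 8 weeks they were 1.28 (1.19 to 1.36), 1.13 (1.05 to 1.21) and 1.27 (1.11 to 1.44).

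Endothelial cells held BGN far above background. BGN was 119 CPM (114 to 124) in 1386 cells at 4 weeks and 191 CPM (178 to 204) in 421 cells at 8 weeks, where macrophage-gated cells had 7.18 and 10.8 CPM. The ratios to macrophages were 16.6 (7.61 to 45.2), with 6 macrophage UMIs behind it, and 17.7 (12.9 to 24.8). On the log2 scale these are 4.05 and 4.15, and they were 2.58 and 2.88 with cells of several gates kept and 3.40 and 2.24 by clusters. DCN in endothelial cells was 12.7 and 92.3 CPM, below the 23.9 and 108 CPM of macrophages. At 8 weeks FMOD was 10.6 CPM against 3.68 CPM in macrophages, a ratio of 2.89 (1.57 to 5.68), and PRELP was 5.43 CPM (3.51 to 8.01) against 0.263 CPM, from 1 UMI. Podocytes, the filter cells of the mesonephric glomerulus, were gated at 4 weeks only (112 cells) and held BGN at 68.1 CPM (57.1 to 80.7) and DCN at 8.13 CPM.

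Sertoli cells, which nurse the germ cells of a testis, had the highest PRELP level. PRELP was 30 CPM (27.0 to 33.2) in 623 cells at 4 weeks and 18.8 CPM (16.5 to 21.4) in 743 cells at 8 weeks. Stroma had 5.22 and 4.05 CPM, so the ratios were 5.74 (4.60 to 7.21) and 4.65 (3.93 to 5.51), and macrophage-gated cells gave 0 UMIs, which allows up to 3.59 CPM, and 1 UMI. After thinning, the log2 ratios of 2.52 and 2.22 over stroma were 3.56 and 1.28. PRELP stood lower at 8 weeks, with a ratio of 0.629 (0.533 to 0.741). On the log2 scale this was -0.67 from pooled UMIs, -0.30 as a mean over cells and -1.44 after thinning. The other abundant members were at background there: DCN was 24.9 and 116 CPM, 1.04-fold (0.663 to 1.73) and 1.07-fold (0.962 to 1.20) the macrophage level.

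Steroidogenic cells, gated on genes such as CYP17A1 and STAR, held DCN and LUM between background and stroma. DCN was 97.0 CPM (86.6 to 108) in 154 cells at 4 weeks and 249 CPM (237 to 262) in 355 cells at 8 weeks, 4.05-fold (2.58 to 6.72) and 2.31-fold (2.07 to 2.58) above macrophages. LUM was 11.8 CPM (8.40 to 16.2) and 31.1 CPM (27.0 to 35.7). The cells held 8.21 (5.87 to 11.8) and 8.01 (6.93 to 9.30) DCN UMIs per LUM UMI, where stroma held 16.0 (15.1 to 16.9) and 13.6 (13.3 to 13.8). OGN was 2.73 and 6.73 CPM, near the macrophage level of 2.39 and 7.09 CPM. BGN was 6.97 and 26.8 CPM, 0.971 (0.384 to 2.91) times the macrophage level at 4 weeks and 2.49 (1.76 to 3.58) times at 8 weeks.

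Germ cells held DCN above background at 4 weeks, with LUM at background. DCN was 186 CPM (176 to 196) in 467 cells at 4 weeks and 153 CPM (146 to 161) in 808 cells at 8 weeks, and macrophage-gated cells had 23.9 CPM (14.6 to 37.0) and 108 CPM (97.7 to 119). LUM in the same germ cells was 0.841 CPM, from 6 UMIs, and 6.83 CPM, against 2.39 and 7.09 CPM in macrophages. At 4 weeks germ cells therefore held 221 DCN UMIs per LUM UMI (101 to 602) and 3.13 per COL1A2 UMI (2.80 to 3.50), while stroma held 16.0 and 0.638. At 8 weeks the germ cell values were 22.4 (17.6 to 29.0) per LUM UMI and 1.45 (1.34 to 1.57) per COL1A2 UMI, against 13.6 and 1.08 in stroma. The stroma values per COL1A2 UMI depend partly on the gate, of which COL1A2 is a marker.

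The germ cell DCN was spread over cells. A DCN UMI was found in 74.3% of germ cells at 4 weeks and 58.3% at 8 weeks. After thinning the shares were 17.7% (14.3 to 21.5) and 16.3% (13.8 to 19.0), against 3.42% (0.939 to 8.52) and 9.50% (7.38 to 12.0) of macrophage-gated cells. Median unthinned depths were 12430 and 8812 UMIs in germ cells and 5637 and 4928 in macrophages. Cells with a UMI of DAZL, DDX4 or MAEL, genes of later germ cells, had 179 and 148 CPM, and those with none of the 3 had 222 and 217 CPM. At 8 weeks the comparison with macrophages depended on which cells were taken: the log2 ratio of 0.50 became -0.81 with cells of several gates kept and -0.65 by clusters, where the germ cell level was 315 CPM. At 4 weeks the log2 ratio was 2.95, and from 2.46 to 3.22 under the alternatives. The direction between the stages also depended on the cells taken. The log2 ratio of 8 over 4 weeks was -0.28 from the gates, 0.68 by clusters (197 and 315 CPM) and -0.06 after thinning (188 and 180 CPM).

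**Figure D4:**
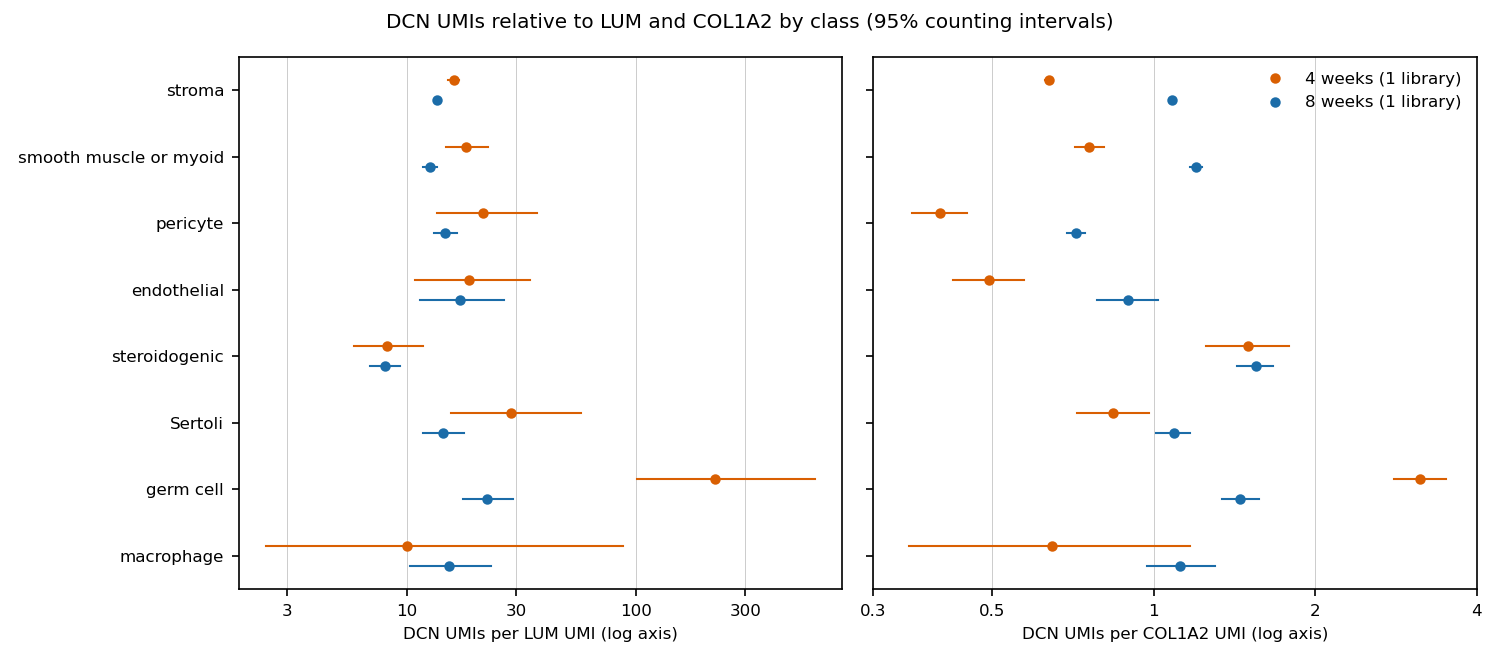
DCN UMIs per LUM UMI (left) and per COL1A2 UMI (right), log axes, in 8 classes at 4 weeks and 8 weeks, 1 library each, with 95% counting intervals. Germ cells at 4 weeks stand apart from the other classes on both axes, and the steroidogenic cells have the fewest DCN UMIs per LUM UMI at 8 weeks. COL1A2 is a marker of the stroma gate.

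DCN and LUM were low in the remaining classes. In mesonephric tubule cells (899 at 4 weeks, 1 at 8 weeks) DCN was 11.6 CPM and LUM 1.35 CPM at 4 weeks. In other leukocytes DCN was 14.1 and 103 CPM, and in erythroid cells 16.7 and 127 CPM. DCN in leukocytes and erythroid cells was thus near the macrophage level and, as there, higher at 8 weeks. Its part in the stage ratios of classes with low levels was not tested.

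Over 22 points, each a class with at least 50 cells in 1 library, the profile of LUM on the log2(CPM + 10) scale was like that of DCN (Pearson r = 0.93) and that of FMOD like that of OGN (r = 0.98). These values describe the points, which share 2 libraries, and carry no test. PRELP had r of at most 0.42 with any other member. Of 8896 other genes, the 5 most like DCN were PCDH9, PDGFRA, PON1, C7 and ADAMTS2 (r from 0.932 to 0.966). Those most like LUM were PHLDA3, LOC106839199, C7, LHX9 and OSR2 (0.960 to 0.969). OGN was followed by THBS2, LRRC17, PCDH18, ISLR and COL1A1 (0.976 to 0.988), and BGN by ADGRA2, RBMS3, NFIB, FLRT2 and TNS2 (0.932 to 0.983). PDGFRA and COL1A1 are themselves markers of the stroma gate.

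In the donkey RefSeq annotation LUM and DCN are neighbours, beside KERA, and ASPN, OMD and OGN follow one another within CENPP, while PRELP and FMOD are neighbours after OPTC. LUM and DCN were both higher at 8 weeks in stroma. OGN, by contrast, was over 100 CPM in stroma while its neighbours ASPN and OMD were at the background level. Whether the counting used strand is not given in the sources used here, so reads of CENPP and of these 3 genes may be mixed.

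Among 10 other genes of the family, 5 were higher and 5 lower in stroma at 8 weeks, 2 of them (KERA and PODNL1) at least 2-fold higher and 1 (CHAD) at least 2-fold lower. Keratocan (KERA) gave 0 UMIs in stroma at 4 weeks, which allows up to 0.152 CPM, and 75 UMIs or 0.904 CPM at 8 weeks, at least 5.94-fold higher. PODNL1 was 1.37 and 3.08 CPM, and CHAD (0.710 and 0.349 CPM) and NYX (0.507 and 0.277 CPM) were lower at 8 weeks. The median log2 ratio of the 10 was -0.02.

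Genes that build the sugar chains were mostly lower at 8 weeks in stroma, as were most genes. Of 22 chondroitin and dermatan sulfate enzymes, 0 were at least 2-fold higher and 3 at least 2-fold lower, with a median log2 ratio of -0.16 against -0.12 over all genes tested. The highest ratios were those of B3GAT3 (35.7 and 66.8 CPM) and B3GALT6 (15.3 and 26.3 CPM), which build the linker to the core protein, and the lowest those of CSGALNACT1 (28.6 and 12.4 CPM), which starts the chain, and CHST13 (1.37 and 0.386 CPM). Of 10 keratan sulfate genes compared, of 11 listed, 1 was at least 2-fold lower and 0 higher, with a median of -0.23. CHST1 (9.38 and 12.7 CPM) and CHST6 (0.406 and 0.566 CPM) had the highest ratios, and B3GNT7 (1.83 and 1.02 CPM) and ST3GAL1 (68.9 and 33.1 CPM) the lowest.

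Most collagens that these proteins bind changed little in stroma-gated cells. Of 11 such genes 0 were at least 2-fold higher, and COL14A1, which sits on fibril surfaces, was the 1 at least 2-fold lower, 38.4 and 13.0 CPM. COL3A1 (1018 and 1208 CPM) and COL12A1 (59.9 and 71.1 CPM) had the highest ratios, and COL6A1 (51.9 and 36.4 CPM) had the lowest but for COL14A1. The median log2 ratio was 0.12. COL1A1, COL1A2, COL3A1 and COL6A3 are markers of the stroma gate. Their levels here, and the median, are thus not independent of how the cells were selected. Of 24 ligands, receptors and proteases, TLR4 (0.811 and 2.65 CPM) and TLR2 (0.355 and 0.928 CPM) were the 2 at least 2-fold higher. Macrophages held TLR4 at 746 and 805 CPM and TLR2 at 393 and 187 CPM. MET, a receptor to which decorin binds, was the 1 at least 2-fold lower, 6.49 and 0.361 CPM, and LOXL2, a collagen cross-linking enzyme, was 31.6 and 16.0 CPM. Of 13 large or cell-surface proteoglycans compared, of 14 listed, 0 were at least 2-fold higher and 3 at least 2-fold lower, with a median of -0.27. GPC4 (23.2 and 37.3 CPM) and ACAN (0.254 and 0.386 CPM) had the highest ratios, and SDC4 (11.6 and 3.31 CPM) and NCAN (1.27 and 0.590 CPM) the lowest.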

How the data were processed

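The matrices hold raw counts: each entry is a whole number of UMIs of a gene in a barcode, and the deposited counts were not scaled. The file headers name Cell Ranger 7.1.0 as the authors' software, whereas Cell Ranger 2.1.1 stands in the submitters' processing notes. A DNBelab C droplet kit was used, per the labels. For build, annotation, strand and intronic reads, nothing is given in the sources used here. The RefSeq gene table named 768 features deposited as locus identifiers.

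The 8 members, the gene lists and the markers were chosen with earlier results of these data known. Cells with at least 200 genes were kept. Marker UMIs per 10000 and a minimum number of markers formed gates for 15 classes and 6 stroma subsets. The limits of the gates were set after clusters, and the members' levels in them, had been seen. Some gates took precedence. A cell of the pericyte gate was not counted as smooth muscle or myoid or as stroma. A cell of the smooth muscle or myoid gate was not counted as stroma, and a cell of the macrophage gate not as other leukocyte. Cells that then still passed several gates (588 and 883) or none (1742 and 1477) were left out, and no doublet caller was run. Ratios carry exact conditional binomial intervals and shares Clopper-Pearson intervals, at 95%, and a count of 0 was given the limit of 3 counts. They cover counting error only. The 2-fold counts and log2 ratios over all genes used sums with 0.5 UMI added and at least 10 UMIs. Each stage is 1 library, so no p-value was computed. Named were all members, for members with at least 100 CPM in a class the 5 genes most like it, and per list the 2 highest and 2 lowest log2 ratios. Stroma gate markers, COL1A2 among them, were named for context after their values were seen. Clusters for the alternative came from 2000 variable genes without the members, 30 principal components and Leiden resolution 1.0 (scanpy 1.11.5), which gave 29 clusters. Ratios and intervals (scipy 1.17.1) were run on simulated Poisson sums, which is the model the intervals assume. Such a run checks the calculation only, since it holds no spread between cells or animals. The alternatives were a stricter gate, cells of several gates kept, at least 1000 genes per cell, clusters, removal of the deepest 6% of cells, a mean over cells, thinning to 1000 UMIs and, chosen after seeing the data, subtraction of the macrophage level.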

Additional observations from a re-analysis of the deposited data

Results flagged for a closer look

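With 1 library per stage, the members below had a stage ratio above 1 in some classes and below 1 in others, each counting interval excluding 1. The difference between the classes was not tested in any of these cases, and no spread between animals is known.

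DCN was lower at 8 weeks in germ cells (log2 ratio -0.28) and higher in stroma (0.89), cells of the smooth muscle or myoid gate (0.59), pericytes (1.05) and steroidogenic cells (1.36). The lower germ cell value did not hold under each choice of cells: the log2 ratio was 0.68 by clusters (197 and 315 CPM) and -0.06 after thinning (188 and 180 CPM). DCN was also higher in classes at background level, namely Sertoli cells (2.22), endothelial cells (2.86), macrophages (2.17) and other leukocytes (2.87).

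BGN was lower at 8 weeks in cells of the smooth muscle or myoid gate (log2 ratio -0.38) and higher in endothelial cells (0.68), pericytes (0.25) and stroma (0.19). The higher BGN ratios in germ cells (1.60), Sertoli cells (1.10) and steroidogenic cells (1.94) start from 4-week levels of 3.78, 5.43 and 6.97 CPM, below the 7.18 CPM of macrophages. At 8 weeks BGN was 1.06 (0.739 to 1.56) times the macrophage level in germ cells and 1.08 (0.760 to 1.57) times in Sertoli cells, but 2.49 (1.76 to 3.58) times in steroidogenic cells, at 26.8 CPM.

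ASPN was lower in stroma (-0.56), where it is at the macrophage level, and higher in pericytes (1.64, but 0.45 after thinning). PRELP was lower in Sertoli cells (-0.67), pericytes (-0.96) and stroma (-0.37, but 0.84 after thinning) and higher in endothelial cells (0.94), which held 2.83 and 5.43 CPM. The pericyte value rested on 15 and 44 UMIs, with a ratio of 0.514 (0.281 to 0.994).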

How the results depend on the processing

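The log2 ratio of the summed level in stroma was 0.78. It was 0.80 with cells of several gates kept, 0.65 by clusters, 0.68 without the 6% of cells with the most UMIs, 0.55 as a mean over cells, 0.63 after thinning and 0.73 with the macrophage level subtracted. The number of members at least 2-fold higher, 1, was 0 as a mean over cells and 0 after thinning. Directions turned for OGN in stroma (-0.03, mean over cells), ASPN (0.37) and PRELP (0.84) in stroma and BGN in proliferating over other stroma at 4 weeks (0.05), the last 3 after thinning, and for DCN in germ cells over macrophages at 8 weeks (-0.81 with cells of several gates kept, -0.65 by clusters) and between the stages (0.68 by clusters, against -0.28). FMOD in stroma, with a log2 ratio of 0.03, turned to -0.02 by clusters, -0.10 without the 6% of cells with the most UMIs, -0.06 as a mean over cells and -0.07 with the macrophage level subtracted. The cause was not tested. With 1 more marker per gate, or at least 1000 genes per cell, 61 of 61 values moved by less than their counting interval. ASPN, PRELP and OMD rest on few UMIs in most classes, and differences in their levels between such classes were not detectable at this depth. No paired analysis was possible because each stage is 1 library.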
